A study of Mus musculus with 6 samples.

Results

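The expression of 10 genes that build or regulate the microtubules of neurons was followed in single cells of the embryonic mouse retina. They are the beta-tubulins Tubb3, Tubb2a and Tubb2b, the lattice-binding protein doublecortin (Dcx), the stathmins Stmn1, Stmn2, Stmn3 and Stmn4, and the structural microtubule-associated proteins Map1b and Mapt (tau). They were chosen by name, with earlier results of these data known, and make up 10 of the 27998 genes counted. Each of the 10 passed the filter on low counts in all 5 cell types. Dissociated retinal cells at E14 were profiled by droplet 3′ RNA sequencing (10x Genomics, version 2 chemistry), which counts unique molecular identifiers (UMIs), 1 for each captured transcript. There were 6 libraries in 3 groups of 2. The Bax null group carries no named Atoh7 mutation, the Bax null Atoh7 null group lacks both genes, and the Bax het Atoh7 null group is heterozygous for the Bax mutation and lacks Atoh7. So every group carries at least 1 mutant Bax allele, and none of the 3 has both genes intact. The labels name no conditional allele, litter or pooling of embryos. Where nothing ties a library to its own animal, the p-values measure at most the spread between these libraries.

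Microtubules are hollow polymers of alpha- and beta-tubulin dimers that carry transport along axons and give growing neurites their shape. Stathmins bind free tubulin dimers and favour disassembly, whereas doublecortin, Map1b and tau bind the polymer and stabilise, bundle or space it. Tubb3 and doublecortin are widely used as markers of young neurons. Retinal ganglion cells are among the earliest neurons of the retina and send their axons through the optic nerve to the brain. Atoh7 is a basic helix-loop-helix transcription factor needed for most ganglion cells to form, and Bax is a pro-apoptotic protein whose loss spares neurons from programmed death.

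The authors' cell table assigned 67050 cells of these libraries to ganglion cells, neurogenic cells, progenitor cells, cones and a class labelled horizontal cells, each split further into numbered clusters, with 667 to 1772 ganglion cells in a library. The libraries held 9269 to 14730 cells and 22463515 to 66594431 UMIs. The 2 Bax null libraries stood apart from the other 4: their median depth was 5661 and 6804 UMIs per cell against 1634 to 2632, and mitochondrial genes made up 3.80% and 3.90% of their UMIs against 1.06% to 1.15%. Summed over 4 genes of red blood cells, progenitor cells gave 942 to 1105 CPM (counts scaled to a common total) in the Bax null libraries and 2.76 to 105 and 6.20 to 50.5 in the Bax null Atoh7 null and Bax het Atoh7 null libraries. These differences fall between the same libraries as the Atoh7 genotype, so the 2 cannot be told apart in any comparison with the Bax null group. Atoh7 had 376 and 458 UMIs in the Bax null libraries and 0 in the 4 Atoh7 null libraries, which allows up to 3 UMIs in each. Bax was at 144 and 108 CPM over all cells in the Bax het Atoh7 null libraries, at 17.1 and 15.0 in the Bax null libraries, and at 47.7 and 11 in those labelled Bax null Atoh7 null, so replicate 1 by label of the latter lay between the Bax null and the Bax het libraries. Both libraries labelled Bax null Atoh7 null also shared 2596 cell barcodes, 22.0% of the smaller library, against 1.36% to 2.09% for the other pairs. With the cells of shared barcodes left out, the numbers of members called below all stayed within 1.5 times, 108 of 113 log2 values kept their call and 5 lost it. The 8 ganglion markers summed to 2740.3 to 10031 CPM in ganglion cells and to at most 444 in any other class. The class labelled horizontal cells also held amacrine markers (567 to 837 CPM over 4 genes, against at most 27.9 elsewhere) beside the horizontal ones, and is called horizontal-labelled below.

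Counting at the 3′ end requires that a transcript's last bases belong to 1 gene, and the 2 Tubb2 genes are close copies. On GRCm38 with the GENCODE M21 annotation, Tubb2a lies at chr13:34074274-34078007 and Tubb2b at chr13:34126748-34130466, both on the minus strand and each with 4 exons. Their coding sequences, both 1335 bases long, are 96.5% identical and differ at 47 bases. The last 60 coding bases of each are exonic and written 5′ to 3′ on the sense strand without the stop codon. They are shown because they carry the acidic tail in which beta-tubulins usually differ. The capitals mark the 3 bases at which the 2 genes differ. Read in frame, all 3 leave the amino acid unchanged, so the 2 genes encode the same tail.
Tubb2a (chr13:34074471-34074530): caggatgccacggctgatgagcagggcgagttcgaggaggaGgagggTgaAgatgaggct
Tubb2b (chr13:34127474-34127533): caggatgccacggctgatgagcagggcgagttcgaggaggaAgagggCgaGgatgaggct
In the last 400 bases of the annotated transcripts, 112 of the 351 windows of 50 bases of Tubb2a (31.9%) also occur in transcripts of Tubb2b or the pseudogene Tubb2a-ps2, whereas none of the Tubb2b windows, and none of those of the other 8 genes, occurs in another gene. Values of Tubb2a are therefore uncertain as far as reads from these stretches could be split or dropped. The other members lie at chr8:123411424-123422015 (Tubb3, plus strand), chrX:143855842-143933311 (Dcx, minus), chr4:134468320-134473843 (Stmn1, plus), chr3:8509360-8561606 (Stmn2, plus), chr2:181306459-181314500 (Stmn3, minus), chr14:66344296-66361680 (Stmn4, plus), chr13:99421446-99516540 (Map1b, minus) and chr11:104231390-104332090 (Mapt, plus).

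Atoh7 belongs to a class of factors that bind E-boxes (CANNTG, a motif equal to its own reverse complement). In the RefSeq set for GRCm38.p6, promoter windows of 250 bases before the start site were held for 5 members (Tubb3, Tubb2a, Dcx, Stmn3 and Map1b) and not for Tubb2b, Stmn1, Stmn2, Stmn4 and Mapt. An E-box stands in 66.2% of the 32851 promoter windows of this length. One was found in the windows of Tubb2a, Stmn3 and Map1b and none in those of Tubb3 and Dcx. The windows of Tubb2a and Stmn3, which differed most between groups among these 5 genes in ganglion cells, are printed with the E-box in capitals.
Tubb2a (chr13:34078009-34078258, minus strand): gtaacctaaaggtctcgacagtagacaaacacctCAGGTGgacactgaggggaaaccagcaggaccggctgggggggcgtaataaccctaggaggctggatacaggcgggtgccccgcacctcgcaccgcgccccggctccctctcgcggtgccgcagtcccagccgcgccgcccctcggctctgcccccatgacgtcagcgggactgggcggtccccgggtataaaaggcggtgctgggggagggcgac
Stmn3 (chr2:181314501-181314750, minus strand): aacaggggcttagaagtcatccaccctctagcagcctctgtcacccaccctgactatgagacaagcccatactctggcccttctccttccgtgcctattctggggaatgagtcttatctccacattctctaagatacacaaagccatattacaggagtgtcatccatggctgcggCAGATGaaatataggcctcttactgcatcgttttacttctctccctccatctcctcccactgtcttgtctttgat
A match of these letters is a description of the window and does not show that a factor binds there.

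For each library, UMIs were summed within each cell type and scaled to CPM of the sum, with trimmed-mean-of-M (TMM) factors; a level below is such a TMM-scaled CPM, and the 2 values of a group are its replicates 1 and 2. Levels of different genes are not ranked against each other. All 10 genes were lowest or near lowest in progenitor cells, and ganglion cells held the highest level of each gene in every library, except that Tubb2a was higher in horizontal-labelled cells of the 2 Bax het Atoh7 null libraries. The groups of genes differed in how far ganglion cells stood above the progenitor cells of the same library. Since cells were assigned to types from their expression, these differences between cell types are a description and were not tested.

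Among the tubulins, Tubb3, the beta-tubulin isotype of neurons, was at 3669 and 3843 CPM in ganglion cells of the Bax null libraries, 2376 and 2771 in the Bax null Atoh7 null libraries and 2489.9 and 2792 in the Bax het Atoh7 null libraries. It followed the order ganglion, horizontal-labelled, cone, neurogenic and progenitor cells in all 6 libraries. Its level in ganglion cells was 36.2 to 160.3 times that of the progenitor cells of the same library, and in neurogenic cells, which are leaving the cell cycle, 8.79 to 20.6 times. Taken over the libraries, the ganglion and horizontal-labelled ranges met (2376 to 3843 and 2002 to 2455 CPM), so these neighbours are separated only within each library. Tubb2a, a beta-tubulin of differentiated neurons, was at 216 to 458 CPM in ganglion cells and 209 to 303 in horizontal-labelled cells, and its neurogenic range (14.5 to 17.8) overlapped that of progenitor cells (17.2 to 19.6). Tubb2b, the isotype of migrating and newborn neurons, was already at 229.6 to 285 CPM in progenitor cells and stood 6.87 to 13.6 times higher in ganglion cells. Tubb2b in cones and horizontal-labelled cells overlapped (795 to 1625 and 1078 to 1624 CPM), and these 2 cell types changed places in the order in 1 Bax null library.

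Doublecortin, which binds microtubules of migrating neurons, was low outside the postmitotic cell types. Its level was 284 to 322 CPM in ganglion cells, 91.2 to 144 in cones and 74.7 to 118 in horizontal-labelled cells, but only 3.59 to 8.21 in neurogenic and 1.42 to 3.14 in progenitor cells. The 6 ganglion values differed by little, and those of cones and horizontal-labelled cells overlapped. Stmn2, a palmitoylated stathmin of growth cones, and Stmn3, its relative in neurons, rose in the same order as Tubb3 in all 6 libraries, with ganglion levels of 3523 to 4446 and 518 to 1426 CPM, 59.8 to 231 and 39.6 to 270.4 times those of progenitor cells. Stmn2 was at 209 to 555 CPM in neurogenic cells, and Stmn3 at 30.9 to 77.9. Stmn4 kept that order too over a narrower range, 9.20 to 12.4 times. Stmn1, the stathmin of dividing and immature cells, was abundant in every cell type (692 to 2871 CPM in progenitor cells, 2033 to 10391 in ganglion cells), and its ganglion level was 2.80 to 3.62 times that of progenitor cells. Within each cell type the Stmn1 values fell into 2 sets, the Bax null libraries above the other 4.

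The 2 structural proteins differed. Map1b, which binds microtubules in growing axons, was at 449.5 to 652 CPM in progenitor cells and not separated from that in neurogenic cells (486 to 588), and cones (1200.5 to 1709.8) came second to ganglion cells (1961 to 3887) in all 6 libraries. Mapt, the axonal protein tau, was lowest in progenitor and neurogenic cells (3.25 to 6.94 and 3.97 to 9.51 CPM, overlapping), slightly higher in cones (11.2 to 21.6), and reached 57.4 to 93.4 in horizontal-labelled and 154 to 519 in ganglion cells. Among the 6 clusters of horizontal-labelled cells, cluster 76 held 343 CPM of Mapt, 410.0 of Dcx and 639 of Stmn4, while the median clusters were at 39.4, 19.5 and 186 CPM.

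**Figure D1:**
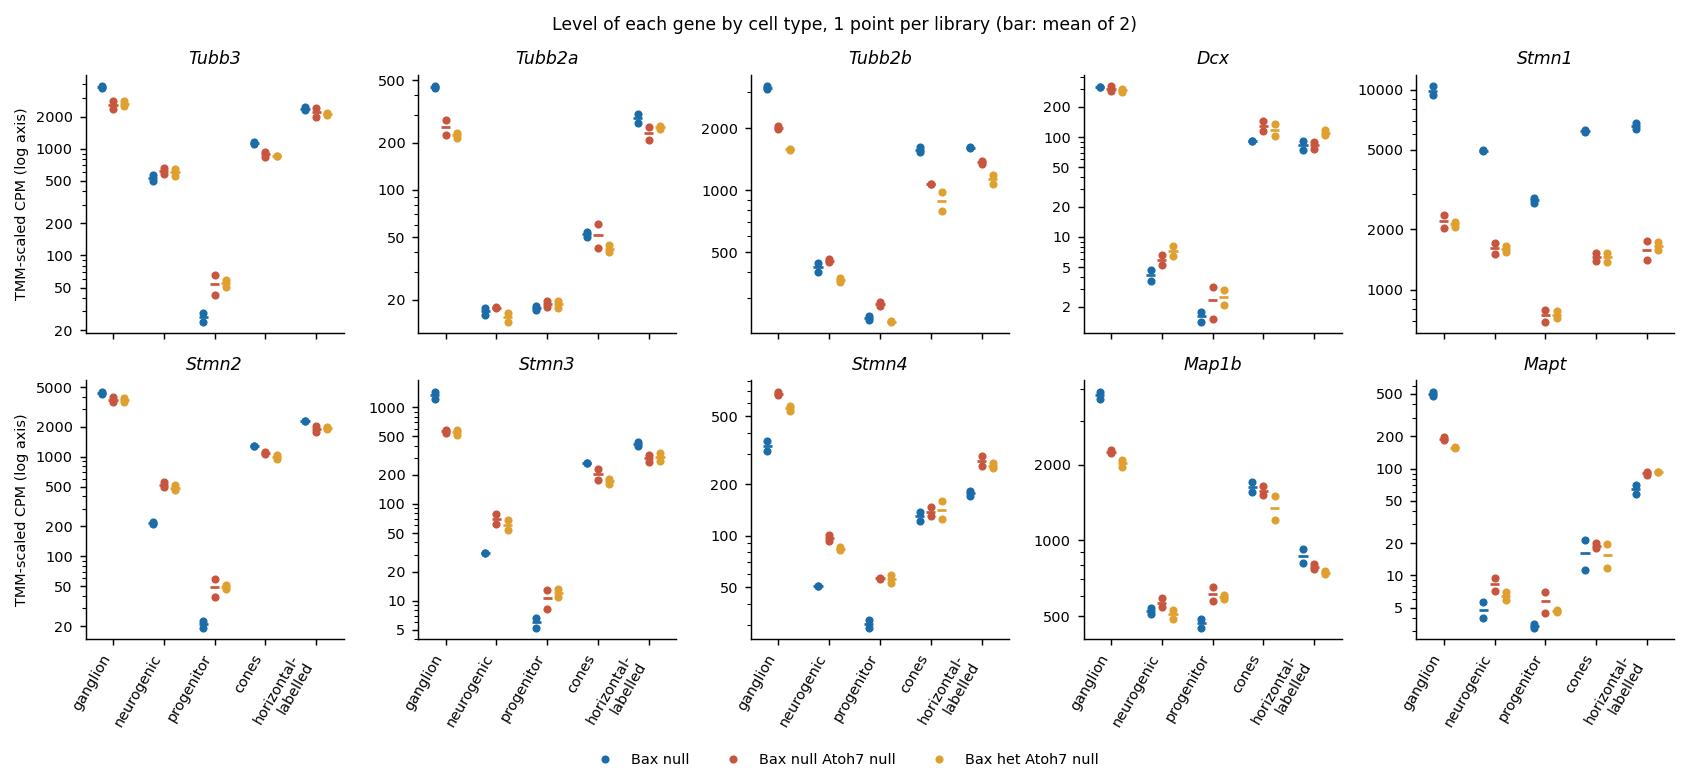
Level of each of the 10 genes in 5 cell types, as TMM-scaled CPM on a log axis; each point is 1 library, coloured by group, and the bar is the mean of the 2 libraries. Ganglion cells sit highest in nearly every panel, Dcx and Mapt fall below 10 CPM in neurogenic and progenitor cells, and Stmn1 of the Bax null libraries lies above the other 4 libraries in all 5 cell types.

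Ganglion cells were not uniform in these genes. Over the authors' 20 ganglion clusters, each averaged over libraries with at least 20 of its cells, Mapt ran from 4.32 CPM in cluster 44 to 1417 in cluster 89, a 328-fold range. Dcx ran from 7.57 (cluster 44) to 639 (cluster 62), Tubb2a from 34.9 to 1217 and Stmn3 from 124 to 2774. Tubb3 was spread least, 2003 to 4782 CPM or 2.39-fold. So cluster 44 carried the tubulin marker of neurons at 2003 CPM with doublecortin and tau near their levels in neurogenic and progenitor cells. It was the lowest cluster for 8 of the 10 members. The exceptions were Stmn4, at 102 CPM there and 101 in cluster 92, and Stmn1, lowest in cluster 53 (1594 CPM). The libraries averaged differed: the 2 Bax null ones in cluster 92, the 4 Atoh7 null ones in cluster 53, and 3, including both Bax null ones, in cluster 44. Stmn1 and Stmn4 differed between these libraries within single clusters too, as given below, so cluster and library cannot be told apart for these exceptions. The 20 clusters were formed from the same expression values, so their differences are descriptive.

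The clusters were unevenly filled by the 3 groups. Those with the highest Mapt (clusters 89, 121, 70 and 131, 945 to 1417 CPM) drew 92.3% to 97.6% of their cells from the Bax null libraries, and so did some with the lowest Mapt (cluster 92, 91.3%). Clusters 53, 46 and 129, with Mapt at 32.3, 77.8 and 100.5 CPM, drew 3.02%, 4.60% and 3.35%. Of the Bax null ganglion cells, 50.6% fell in clusters 9, 19, 44, 92 and 67; of the Bax null Atoh7 null ganglion cells, 62.1% fell in clusters 62, 53, 46 and 63; and of the Bax het Atoh7 null ganglion cells, 51.0% fell in clusters 46, 53 and 63. A difference between groups over all ganglion cells therefore sums different mixtures of clusters.

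**Figure D2:**
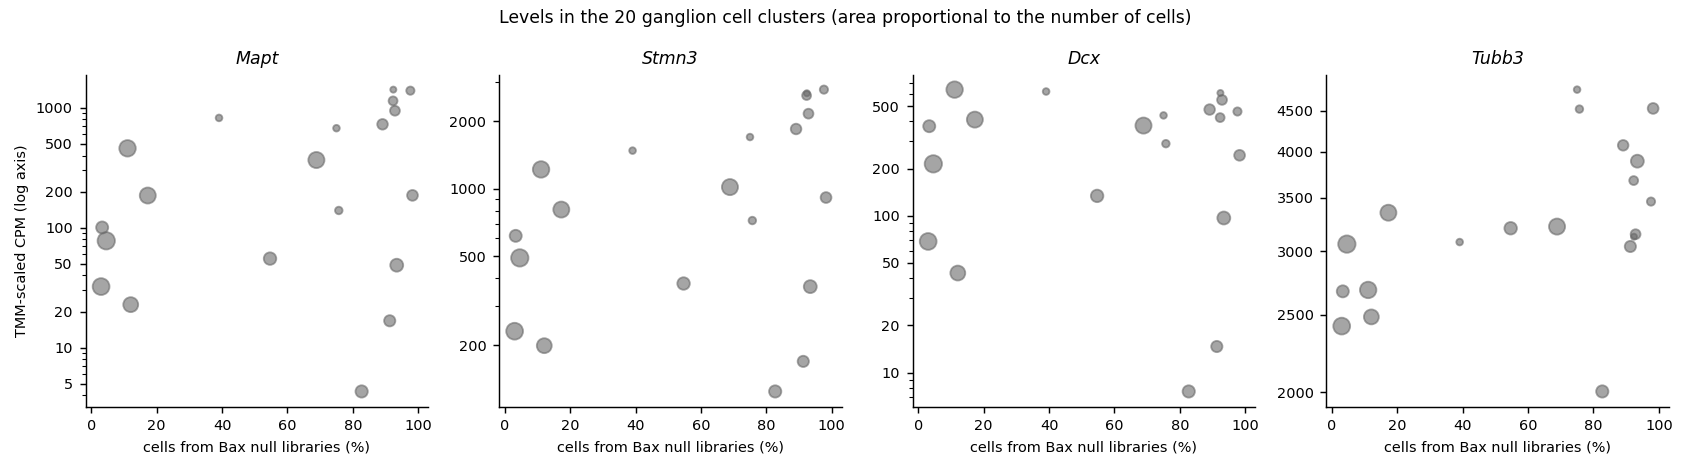
Mapt, Stmn3, Dcx and Tubb3 in the 20 ganglion clusters (TMM-scaled CPM, log axis, mean over libraries with at least 20 cells) against the percentage of the cluster's cells that came from the 2 Bax null libraries; the area of a point is proportional to its number of cells. Mapt spans 4.32 to 1417 CPM and Tubb3 2003 to 4782, and the clusters richest in Mapt lie at the Bax null end of the axis.

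Loss of Atoh7 on a Bax null background was examined by comparing the Bax null Atoh7 null with the Bax null libraries. In ganglion cells 7 of the 10 genes were lower without Atoh7 and 1, Stmn4, was higher (edgeR quasi-likelihood test, Benjamini-Hochberg adjusted p under 0.05). In the same comparison 52.7% of the 10586 genes tested were called, 26.5% lower and 26.2% higher, so a call by itself does not set a member apart. The median log2 fold change of the members was -0.69, beside 0.02 for all genes tested. The 8 ganglion markers summed to 9281 to 10031 CPM in Bax null ganglion cells and 2796 to 3412 in Bax null Atoh7 null ones, and the 8 progenitor markers to 444 to 654 and 968 to 1243. The 4 red blood cell genes moved with these results too (977 to 1170.3 and 1.09 to 118 CPM), and so did markers of cones (126 to 154 and 431 to 463 CPM over 7 genes), horizontal cells (678 to 681 and 1209.9 to 1271 over 5) and neurogenic cells (1314 to 1341 and 1753 to 1808 over 8). The part of these 6 lists in the results was not tested.

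Stmn1 had the widest gap. Its level in ganglion cells was 9395 and 10391 CPM in the Bax null libraries (9893 ± 705, SD, n = 2) and 2033 and 2362 in the Bax null Atoh7 null libraries (2198 ± 233), with no overlap. The log2 fold change was -2.17 ± 0.14 (SE, adjusted p = 1.1e-07), which is 4.50-fold lower. Mapt fell from 477 and 519 CPM to 185 and 196, which is -1.39 ± 0.10 (SE, adjusted p = 1.8e-07) on the log2 scale. Stmn3 fell from 1229 and 1426 CPM to 536 and 588, or -1.24 ± 0.12 (SE, adjusted p = 4.4e-06) on the log2 scale. For each of these 3 genes both libraries of 1 group lay below both of the other.

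The tubulins and Map1b moved less. Tubb2a was at 446 and 458 CPM against 225 and 277, Tubb2b at 3107 and 3206 against 1986 and 2048, and Map1b at 3887 and 3663 against 2232 and 2279.6; the log2 fold changes were -0.85 ± 0.11, -0.65 ± 0.12 and -0.74 ± 0.12 (SE; adjusted p = 3.4e-05, 0.00054 and 0.00024). Tubb3 gave -0.55 ± 0.13 (SE, adjusted p = 0.0039), and without Bax null replicate 2 it was no longer called at -0.51. Stmn4 went the other way, from 313 and 359 CPM to 690.2 and 664, a log2 increase of 1.01 ± 0.11 (SE, adjusted p = 7.9e-06). Dcx (314 and 317 CPM against 289.5 and 322) and Stmn2 (4281 and 4446 against 3523 and 3951) were not called, at -0.05 ± 0.09 (SE, adjusted p = 0.70) and -0.22 ± 0.13 (SE, adjusted p = 0.16).

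These directions hang on the scaling for the smaller changes. The TMM factors were 0.78 and 0.77 in the Bax null and 1.16 and 1.21 in the Bax null Atoh7 null ganglion sums, and scaling by library totals alone raised the median log2 fold change of all genes to 0.63; of all genes called, 86.8% were then higher in place of 49.7%. Under it Stmn1 (-1.56), Mapt (-0.78) and Stmn3 (-0.63) were still called lower and Stmn4 (1.62) higher, whereas Tubb2a (-0.24), Map1b (-0.13) and Tubb2b (-0.04) were not called and Tubb3 changed sign (0.07), also not called. Dcx (0.56) and Stmn2 (0.39), not called with TMM, were called higher. So Tubb2a, Tubb2b, Map1b and Tubb3 were lower relative to the typical gene, and not called as a share of all UMIs. With TMM but without Bax null Atoh7 null replicate 2, Stmn2 was called lower (-0.31).

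The other 4 cell types had their own sets of calls, with Stmn1 lower in each. In progenitor cells 7 members were higher without Atoh7 and 1, Stmn1, was lower, among 26.8% and 27.1% of all genes, 53.9% together; the members' median was 0.68, beside 0.0058 for all genes. Progenitor Tubb3 was at 28.8 and 24.0 CPM in the Bax null and 65.6 and 42.3 in the Bax null Atoh7 null libraries, a log2 increase of 1.04 ± 0.18 (SE, adjusted p = 0.0013). Stmn2 was at 22.5 and 19.3 against 58.9 and 39.1 CPM (1.24 ± 0.17, adjusted p = 0.00029), and the other called increases were Stmn4 (0.88), Stmn3 (0.84), Mapt (0.78), Map1b (0.39) and Tubb2b (0.23). The Tubb2b call was lost under 9 alternatives, among them no filter, thinning, shared barcodes left out, and any 1 of the Bax null or Bax het Atoh7 null libraries left out. The higher values of Tubb3, Stmn2, Stmn3 and Mapt were in replicate 1, and without it the increases of Stmn3 (0.45) and Mapt (0.40) were not called. Without Bax null replicate 1 or 2, 5 members were called in place of 8. The ganglion markers in progenitor cells were lower (80.2 to 83.6 CPM in Bax null, 57.5 to 65.3 in Bax null Atoh7 null). They were also lower in ganglion cells themselves (9281 to 10031 and 2796 to 3412). The neurogenic markers in progenitor cells were higher (529 to 550.1 and 609 to 645). The part of either list in these results was not tested.

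In neurogenic cells Stmn2 (221 and 209 CPM against 494 and 555), Stmn3 (31.3 and 30.9 against 62.3 and 77.9) and Stmn4 (50.4 and 50.9 against 101 and 92.9) were higher without Atoh7. Their log2 fold changes were 1.28 ± 0.11, 1.17 ± 0.14 and 0.94 ± 0.09 (SE; adjusted p = 3.8e-06, 4.8e-05 and 1.1e-05). Mapt, at under 10 CPM in each library, was higher too (0.80 ± 0.25, adjusted p = 0.019), but not called when replicate 1 of either group was left out (0.54 and 0.58). The members' median was 0.39, beside 0.0047 for all genes. Stmn1 was lower (-1.63 ± 0.13, adjusted p = 2.1e-06), and the 3 tubulins, Dcx and Map1b were not called; 47.3% of all genes were, 23.5% higher and 23.8% lower. By library totals alone all 10 were called, where of the 11670 genes tested 7056 were called higher and 824 lower. Neurogenic markers were higher alongside (3854 to 4333 and 5255 to 5791 CPM).

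Cones and horizontal-labelled cells gave fewer calls, 4 of 10 members each. Of all genes, 28.1% (12.5% higher, 15.6% lower) and 29.2% (13.5% higher, 15.7% lower) were called. Their sums were also the smallest, 880460 to 1368294 and 815392 to 1476434 UMIs in tested genes, against 1905019 or more in the other cell types. The part of this depth was not tested. The members' medians in these 2 cell types were -0.15 and -0.19, beside 0.04 and 0.04. Stmn1 was lower in both (-2.09 ± 0.16 and -2.06 ± 0.16, SE, adjusted p = 3.1e-09 and 2.8e-09). Cones also had lower Tubb2b (-0.56 ± 0.15) and Stmn3 (-0.39 ± 0.14) and higher Dcx (0.49 ± 0.17), and leaving out either Bax null library ended each of these calls. By library totals neither decrease was called, with Tubb2b at -0.0003 and Stmn3 at 0.17. Horizontal-labelled cells had lower Stmn3 (-0.49 ± 0.14; 0.05 by library totals) and higher Stmn4 (0.63 ± 0.13) and Mapt (0.49 ± 0.17), and of these Stmn4 alone was called whichever library was left out. The count in cones was 1 without Bax null replicate 1 or 2, and in horizontal-labelled cells it was 7 without Bax null Atoh7 null replicate 2 and 2 without replicate 2 of Bax null. The log2 fold change of Stmn1 thus ran, over the 5 cell types, from -1.63 in neurogenic cells to -2.17 in ganglion cells.

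The Bax het Atoh7 null libraries were compared with the same Bax null libraries, so the 2 comparisons share their controls and are not independent. In ganglion cells 7 members were lower and Stmn4 higher here as well (25.0% of all genes were lower and 25.0% higher), with log2 fold changes of -2.22 for Stmn1, -1.67 for Mapt, -1.27 for Stmn3, -1.02 for Tubb2a, -1.0 for Tubb2b, -0.90 for Map1b, -0.51 for Tubb3 and 0.73 for Stmn4. Tubb3 was not called by library totals (-0.02), nor without Bax het Atoh7 null replicate 1 (-0.43) or Bax null replicate 2 (-0.48). Neurogenic cells had 4 members higher and 1 lower (all genes, 23.4% and 23.8%), among them Dcx at 6.40 and 8.21 CPM against 4.65 and 3.59 (0.84 ± 0.25, adjusted p = 0.015; not called without replicate 2 of either group, 0.65 both times). Progenitor cells had 5 higher and 1 lower (26.6% and 26.5%), cones 0 higher and 4 lower (12.7% and 14.8%, 27.5% together), with Tubb3 at -0.41 (0.05 by library totals, and not called with DESeq2, without the filter or without any 1 of the 4 libraries compared), and horizontal-labelled cells 2 higher and 3 lower (14.4% and 15.8%, 30.2% together), with Stmn3 at -0.43 (0.01 by library totals). The last count was 1 without Bax null replicate 1, 3 without Bax null replicate 2 or either Bax het Atoh7 null library, and 8 without either Bax null Atoh7 null library.

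The effect of losing the remaining Bax allele was examined between the 2 Atoh7 null groups. Their median depth did not overlap, at 1940 and 1634 UMIs per cell (Bax null Atoh7 null) against 2632 and 2206 (Bax het Atoh7 null). Depth and the Bax label therefore cannot be told apart here. The direction rests on the labels, 1 of which the Bax level does not match closely, as given above. None of the 10 genes was called in any of the 5 cell types. There edgeR called 2.34% (ganglion), 1.77% (neurogenic), 2.01% (progenitor), 1.46% (cones) and 1.61% (horizontal-labelled) of all genes. At an unadjusted p under 0.05 there were 3 members in ganglion cells, 2 in neurogenic cells, 1 each in progenitor and horizontal-labelled cells and 0 in cones. Over all genes that threshold was met by 1367 of 10586 (ganglion), 1334 of 11670 (neurogenic), 1890 of 13396 (progenitor), 871 of 9421 (cones) and 866 of 8960 (horizontal-labelled). DESeq2 called 0 members in all 5 cell types. In ganglion cells Stmn1 was at 2033 and 2362 CPM in the Bax null Atoh7 null and 2181 and 2061 in the Bax het Atoh7 null libraries, a log2 fold change of 0.05 ± 0.14 (SE), and Tubb3 differed by -0.04 ± 0.13 and Stmn2 by 0.00 ± 0.13, with overlapping libraries. Tubb2b had the steadiest difference: both Bax null Atoh7 null libraries lay above both Bax het Atoh7 null libraries in all 5 cell types. Ganglion levels were 1986 and 2048 against 1583 and 1579 CPM and progenitor levels 274 and 285 against 230.4 and 229.6, log2 fold changes of 0.35 ± 0.12 (SE, adjusted p = 0.18) and 0.28 ± 0.08 (SE, adjusted p = 0.14). The other 3 types gave 0.31 (neurogenic), 0.28 (cones) and 0.27 (horizontal-labelled), with adjusted p from 0.22 to 0.61. The 5 values come from the same 4 libraries. With either Bax null Atoh7 null library left out Tubb2b was called in ganglion cells (0.38 without replicate 1, 0.33 without replicate 2), and without replicate 1 it was called in progenitor cells as well (0.31). Mapt (0.28 ± 0.10, adjusted p = 0.23) and Stmn4 (0.28 ± 0.11, adjusted p = 0.26) were the other ganglion genes with a low unadjusted p, again above in both libraries. In horizontal-labelled cells Dcx was at 89.4 and 75.6 against 104 and 118 CPM, -0.42 ± 0.16 (adjusted p = 0.35).

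**Figure D3:**
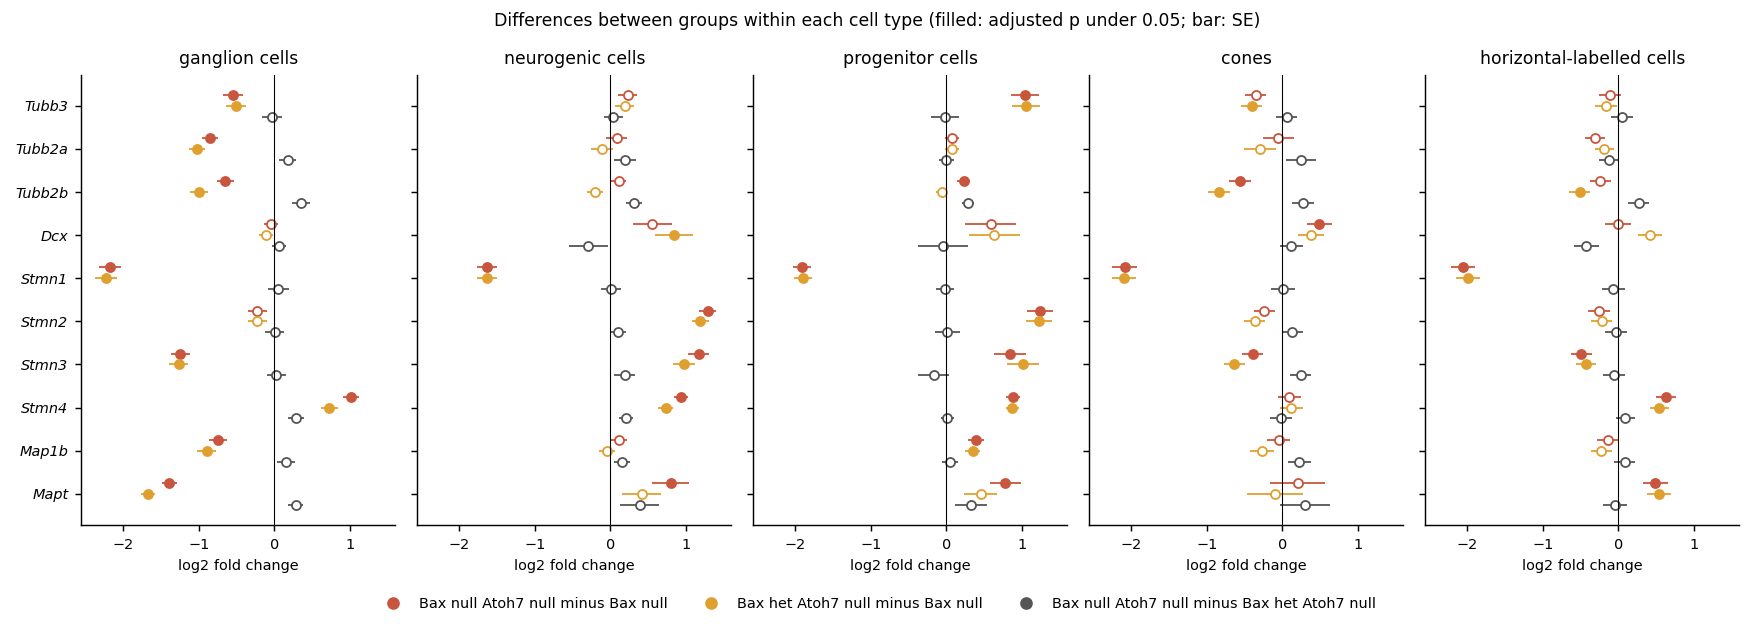
Log2 fold change of each gene between groups in each of 5 cell types; points are the edgeR estimates, bars their standard errors, and filled points had an adjusted p under 0.05. Comparisons with the Bax null libraries (red, yellow) show Stmn1 far to the left in all 5 panels and the tubulins, Stmn3, Map1b and Mapt to the left in ganglion cells, but scaled by library totals Tubb3, Tubb2a, Tubb2b and Map1b of the Bax null Atoh7 null comparison, and Tubb3 of the other, are not called; no grey point, for the 2 Atoh7 null groups, is filled.

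The members were also read within single ganglion clusters. As these were formed from the same expression values, cells of different groups in a cluster need not be alike. Clusters 9, 62, 63, 90 and 100 held at least 20 cells of every library. These values, from 25 to 248 cells each, were not tested. Stmn1 was lower in both Bax null Atoh7 null than in both Bax null libraries in 5 of 5 clusters: in cluster 62 its level was 12692 and 15182 CPM among Bax null cells, against 2609.8 and 2934 without Atoh7, and the Bax null mean was 3.83 to 5.03 times higher over the 5. Stmn4 was higher in 5 of 5, for example 1622 and 1498 CPM against 678 and 767 in cluster 62. Both counts were the same by library totals.

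Map1b was lower in 5 of 5 clusters (3 of 5 by library totals), with 6129 and 6034 CPM for Bax null cells of cluster 63 and 2814 and 2831 for those without Atoh7. Tubb3 was lower in 5 of 5, but by library totals in 2, and higher in 1. Mapt and Stmn3, which fell most after Stmn1 over all ganglion cells, had no common direction within clusters. Mapt was below in 2 and above in 2 of the 5 clusters, and its Bax null mean ran from 0.468 to 1.92 times that of the Bax null Atoh7 null cells. By library totals it was above in 4. The 2 above with TMM rested on few Mapt UMIs, 3 and 2 (Bax null) against 6 and 7 in cluster 90 and 14 and 15 against 9 and 6 in cluster 100. The 2 below, clusters 9 and 62, held 39 to 441 a library. In cluster 62 Mapt was at 531 and 863 CPM against 372 and 356, and in cluster 100 at 29.0 and 37.3 against 84.9 and 56.8. Stmn3 was below in 3 and above in 2 (2 and 3 by library totals). Tubb2b was below in 4 and above in 0, but by library totals below in 1 and above in 3, and Tubb2a was below in 3 and above in 1, by library totals 1 and 3. Dcx was below in 1 and above in 1, and Stmn2 below in 2 and above in 2; by library totals each was above in 4.

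**Figure D4:**
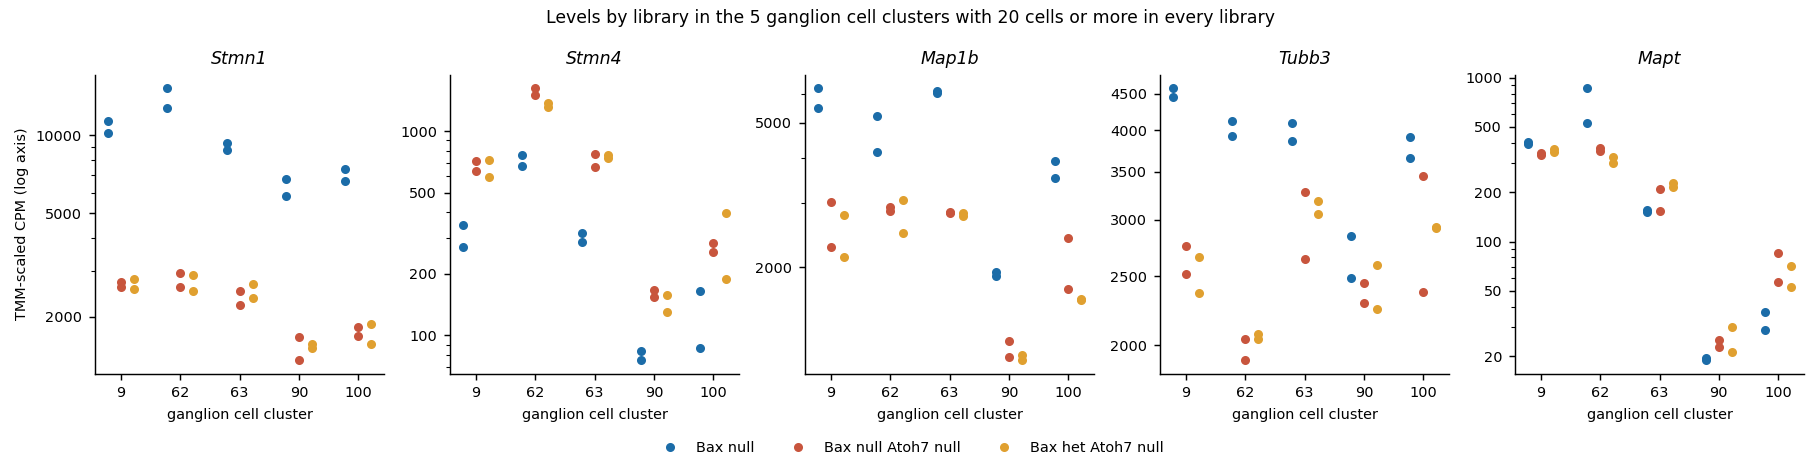
Levels of 5 genes (TMM-scaled CPM, log axis) in the 5 ganglion clusters with at least 20 cells in every library, 1 point per library, coloured by group. Stmn1 of the Bax null libraries lies above and Stmn4 below the other 4 libraries in all 5 clusters. Mapt changes order between clusters 62 and 100, the latter with only 5 to 15 Mapt UMIs a library. Scaled by library totals instead, Mapt of the Bax null Atoh7 null libraries would lie above in 4 of the 5 clusters.

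Because the Bax null libraries differed from the others throughout, the members were next measured relative to the progenitor cells of the same library, and the change in that distance between groups was tested as an interaction. Such a distance moves with the progenitor level as well as with the other cell type. Without Atoh7 on the Bax null background 8 of 10 genes had a shorter ganglion distance and none a longer one, where 15.7% of 13670 genes were called, 7.53% in this direction and 8.15% in the other. Mapt (-2.16 ± 0.16) and Stmn3 (-2.08 ± 0.15) changed most. Tubb3 followed at -1.57 ± 0.12, which combines the lower ganglion and the higher progenitor level given above. Stmn2, not called within ganglion cells, was at -1.45 ± 0.10, with the progenitor levels given above. Map1b (-1.11 ± 0.05), Tubb2a (-0.91 ± 0.08) and Tubb2b (-0.85 ± 0.05) were lower as well. Stmn1 changed by -0.24 ± 0.04 only, against -2.17 within ganglion cells. Stmn4 (0.16 ± 0.09, adjusted p = 0.26) and Dcx (-0.65 ± 0.24, adjusted p = 0.065) were not called. The adjusted p of the 8 genes ran from 8.8e-22 (Map1b) to 4.9e-06 (Stmn1), and each kept its direction and call under library totals in place of TMM. Over all genes called in this comparison 52.0% were higher, and 42.2% by library totals.

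The distance of Tubb3 was shorter in neurogenic cells (-0.83 ± 0.12), cones (-1.32 ± 0.10) and horizontal-labelled cells (-1.12 ± 0.09), adjusted p = 8.5e-06, 2.1e-21 and 3.4e-29. Tubb3 in the Bax null Atoh7 null libraries was at 2002 and 2390 CPM in horizontal-labelled cells and at 65.6 and 42.3 in progenitor cells. Its ratio thus differed between these replicates by more than the SE of 0.09. Such SE and p-values rest on a spread moderated across genes and understate that between libraries for this gene. Stmn2 was shorter in cones (-1.40 ± 0.09) and horizontal-labelled cells (-1.46 ± 0.09) but not called in neurogenic cells (0.03 ± 0.12, adjusted p = 0.94). Counts were 3 of 10 in neurogenic cells, where Stmn1 (0.30 ± 0.04) was longer, 6 in cones and 5 in horizontal-labelled cells, beside 7.46%, 4.91% and 3.09% of all genes. Of all genes called in these 3 comparisons 56.5%, 62.2% and 55.0% were higher, against 32.9%, 26.0% and 23.8% by library totals. The Bax het Atoh7 null libraries, set against the same Bax null libraries, gave 9 of 10 in ganglion cells (with Dcx at -0.74 ± 0.25, adjusted p = 0.036, a call lost without Bax null replicate 2 or Bax het Atoh7 null replicate 2), 3 in neurogenic cells, 6 in cones and 5 in horizontal-labelled cells, where 15.2%, 8.35%, 5.30% and 2.65% of all genes were called. Between the 2 Atoh7 null groups 3, 2, 2 and 0 members had an unadjusted p under 0.05 by edgeR. Over all genes these were 810 of 13670, 640 of 13371, 577 of 13168 and 708 of 13064. The number of members called was 0 in all 4, beside 0.102%, 0%, 0.0152% and 0.0536% of all genes. Without Bax null Atoh7 null replicate 1 the counts were 3, 3, 2 and 1, and without replicate 2 they were 4, 0, 0 and 2.

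**Figure D5:**
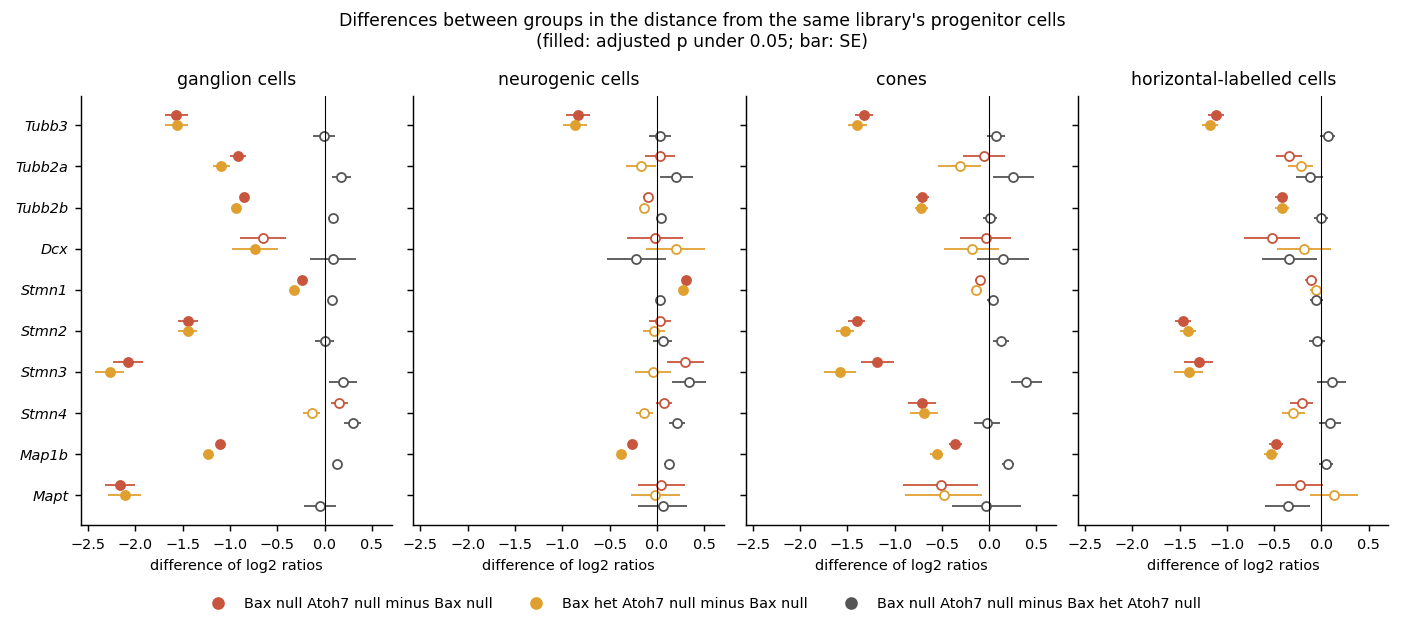
Difference between groups in the log2 ratio of each cell type to progenitor cells of the same library, for each gene; points are edgeR estimates, bars standard errors, and filled points had an adjusted p under 0.05. In the 2 comparisons with Bax null, Stmn3 and Mapt lie near -2 in ganglion cells, Tubb3 is left of 0 in all 4 panels, and Stmn1, far from 0 in the plot of fold changes by cell type, lies within 0.4 of it here.

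The members were set beside 99 other microtubule genes in 11 lists. Without Atoh7 on the Bax null background, 19 of the 92 tested in ganglion cells were higher and 40 lower (26.2% and 26.5% of all genes), with a median log2 fold change of -0.25. In neurogenic cells 30 were higher and 21 lower of 92 (23.5% and 23.8% of all genes), and in progenitor cells 37 and 21 of 94 (26.8% and 27.1%). This balance moved with the scaling: by library totals 48 were higher and 16 lower in ganglion cells, 62 and 4 in neurogenic cells and 72 and 4 in progenitor cells. With TMM the alpha-tubulins and the remaining beta- and gamma-tubulins gave 4 lower and 0 higher of the 10 tested in ganglion cells, the structural microtubule-associated proteins 5 lower and 1 higher of 9, and the plus-end proteins 5 lower and 1 higher of 8, whereas the minus-end and severing proteins gave 1 lower and 4 higher of 9. By library totals these became 1 lower and 5 higher, 3 and 3, 0 and 3, and 0 and 6. The lowest among those with separated libraries were Ttll7, a tubulin polyglutamylase (-1.75 ± 0.17), the beta-tubulin Tubb4a (-1.49 ± 0.11) and the dynein intermediate chain Dync1i2 (-1.47 ± 0.11), and the highest the microtubule affinity-regulating kinases Mark2 (1.02 ± 0.12) and Mark3 (0.59 ± 0.13), which phosphorylate tau, and the kinesin light chain Klc1 (0.63 ± 0.09); these 6 kept their direction and call by library totals. Between the 2 Atoh7 null groups 0 were higher and 2 or 3 lower in each cell type. Over all genes 1.46% to 2.34% were called there, and only 0.485% to 10.5% of the genes called were higher. Dync1i2 (-0.76 ± 0.11 in ganglion cells) and the collapsin response mediator Dpysl2 (-0.52 ± 0.12) were lower in the Bax null Atoh7 null libraries in all 5 cell types. Dpysl2 in ganglion cells was not called by library totals (-0.40).

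Finally, the genes most like each member were sought over the 30 sums of 6 libraries and 5 cell types, among 5864 genes, by Pearson's r of log2 levels. The points share libraries and cell types, and the values are a description. Tubb3 was closest to the RNA-binding protein gene Elavl3 (0.997), Myt1 (0.989) and Stmn2 (0.985); Stmn2 to Myt1 (0.990), Crmp1 (0.987) and Stmn3 (0.985); Stmn3 to Dctn3 (0.987) and Stmn2; and Mapt to Nrxn2 (0.978) and Pak1 (0.971). Dcx was closest to Actl6b (0.976), Tubb2a to Pak7 (0.971), Tubb2b to Nsg2 (0.975), Stmn4 to Klc1 (0.968) and Map1b to the axon guidance receptor gene Nrp1 (0.949). Stmn1 was closest to Gpcpd1 (0.965) and Dnaja1 (0.960), and its r with the other 9 members was 0.172 (Stmn4) to 0.525 (Tubb2b).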

How the data were processed

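Retinal cells of 6 libraries, 2 in each of 3 groups, were analysed from a deposited matrix of raw UMI counts per gene and cell and a deposited table with the library, cell type and cluster of each cell. The authors made the counts with Cell Ranger 1.2.1 on mm10, per the submitters' processing notes; the gene annotation and any removal of doublets are not given in the sources used here, and no doublet caller was run. The cell table also names 2 libraries (26078 of 93128 cells) that match no sample used here; they are not analysed here. Groups came from the sample titles and replicate numbers from the same labels.

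UMIs were summed by library and cell type, filtered with filterByExpr, scaled by TMM and tested with edgeR 4.0.16 (R 4.3.3) by its quasi-likelihood F test, all 6 libraries in 1 fit, with Benjamini-Hochberg adjustment over all genes and a threshold of 0.05; the SE is the log2 fold change divided by the square root of F. Distances from progenitor cells were tested with library as a block. Their SE and p-values rest on a spread moderated across genes, which can be narrower than that of a single gene between libraries. With 2 libraries a group, an exact permutation test cannot go below p = 0.33. Counts were simulated for the 2 Atoh7 null groups in ganglion cells, at a fixed spread not estimated from these data. A log2 change of 1 was recovered for 70.5% of changed genes (10152 genes) and 44% as a distance (13503 genes). Alternatives covered scaling, filters, DESeq2 1.42.0, depth, the replicate block and each library left out; library totals, shared barcodes and the crossed block were added after the data were seen.

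All 10 members are named. From 11 lists of other microtubule genes, up to 3 genes at each end were named among those called, with separated libraries and at least 50 CPM; for each member, up to 3 genes with the highest r (log2 of CPM plus 1, mean of at least 20 CPM). The members and lists were chosen with earlier results of these data known. Sequences and positions come from GRCm38 (GENCODE M21) and RefSeq; 56 symbols stand for over 1 identifier and were kept by identifier.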

Additional observations from a re-analysis of the deposited data

Results flagged for a closer look

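Each value here is a change in distance from the progenitor cells of the same library (log2, Bax null Atoh7 null minus Bax null), flagged because the group difference in the 2 cell types differed by the interaction test. In ganglion cells the distance was smaller for Mapt (-2.16), Stmn3 (-2.08), Tubb3 (-1.57), Stmn2 (-1.45), Map1b (-1.11), Tubb2a (-0.91), Tubb2b (-0.85) and Stmn1 (-0.24). In neurogenic cells it was smaller for Tubb3 (-0.83) and Map1b (-0.26) and larger for Stmn1 (0.30). In cones it was smaller for Stmn2 (-1.40), Tubb3 (-1.32), Stmn3 (-1.18), Tubb2b (-0.71), Stmn4 (-0.71) and Map1b (-0.36), with Stmn3 at -0.58 and not called without Bax null Atoh7 null replicate 1. In horizontal-labelled cells it was smaller for Stmn2 (-1.46), Stmn3 (-1.30), Tubb3 (-1.12), Map1b (-0.48) and Tubb2b (-0.42). The depth, mitochondrial share and red blood cell genes that set the Bax null libraries apart go with the same contrast, and their part was not tested.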

How the results depend on the processing

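Of 113 log2 values of members, all kept direction and call with RLE size factors, 109 without the low-count filter, 111 without cells under 1000 UMIs, 111 with only the 4 libraries compared and 108 without shared barcodes; of the 68 values within cell types, 66 did when libraries were thinned to the smallest total, 67 without the 5% of cells with most UMIs and 58 with DESeq2. Library totals changed the sign of 7: Tubb3 in ganglion cells (0.0665), Dcx (0.564), Stmn2 (0.388), and Stmn3 in cones (0.167) and horizontal-labelled cells (0.0469) in Bax null Atoh7 null minus Bax null, and Tubb3 in cones (0.0492) and Stmn3 in horizontal-labelled cells (0.0122) in Bax het Atoh7 null minus Bax null; 7 others lost their call. Dcx in ganglion cells, not called, changed sign without the 5% of cells with most UMIs (0.0178) and, with a library left out, ran from -0.128 to 0.028. Library totals raised the count of members called to 10 in neurogenic cells (both comparisons with Bax null) and 10 in progenitor cells (Bax het Atoh7 null). Over all 11670 genes in neurogenic cells 7056 were then higher and 824 lower (Bax null Atoh7 null), or 6390 and 781 (Bax het Atoh7 null). In progenitor cells 8088 and 884 of 13396 were. DESeq2 called 2 in cones and 2 in horizontal-labelled cells for Bax null Atoh7 null minus Bax null and 2 in horizontal-labelled cells for Bax het Atoh7 null minus Bax null; cones gave 2 without cells under 1000 UMIs. The cause of these differences was not tested.

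Leaving out 1 library in turn, Bax null Atoh7 null minus Bax null gave 7 to 9 members in ganglion cells, 4 to 5 in neurogenic cells, 5 to 9 in progenitor cells, 1 to 4 in cones and 2 to 7 in horizontal-labelled cells, and 8 to 9, 3 to 5, 5 to 6 and 5 to 5 as distances; Bax het Atoh7 null minus Bax null gave 7 to 9, 4 to 6, 5 to 7, 3 to 6 and 1 to 8, and 8 to 10, 3 to 3, 5 to 7 and 5 to 5; the comparison of both Atoh7 null groups gave 0 to 1, 0, 0 to 1, 0 and 0, and 0 to 4, 0 to 3, 0 to 2 and 0 to 2. Distances in neurogenic cells gave 5 without Bax null Atoh7 null replicate 1. Over these fits 618 gene values kept their call, 55 lost it, 4 gained one and 1 changed sign. Tubb2b in progenitor cells, Stmn3 in cones and Mapt in horizontal-labelled cells (Bax null Atoh7 null minus Bax null) lost theirs under 9, 9 and 8 alternatives.

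Libraries with the same replicate number share only a number: their deviations correlated at -0.202 to 0.298 between groups. With the replicate number as a block 94 values kept their call and 19 lost it, among them the Stmn1 distance in ganglion cells (-0.24 without Atoh7 on the Bax null background, -0.32 for Bax het Atoh7 null minus Bax null). As distances, the block left 0 members in neurogenic cells in both comparisons with Bax null, 3 in cones (Bax null Atoh7 null) and 3 in horizontal-labelled cells in both; in the other comparisons the counts stayed within 1.5 times. Crossed numbers gave 8, 5, 7, 4 and 4 members in the 5 cell types. The ganglion sums of the Atoh7 null groups held 1905019 to 2804470 UMIs against 10436128 and 10867214 in the Bax null libraries. At the depth of the Atoh7 null groups a simulated log2 change of 1 was recovered for 70.5% of changed genes. These were drawn at random from genes above a minimum count and are not the members. All counts were drawn at a fixed spread that was not estimated from these data. The share recovered is therefore not the power of these comparisons, and smaller changes were not simulated.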
